A study of Mus musculus with 29 samples.

Results

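The genes described here encode the 2 Gq-class α subunits Gnaq and Gna11, the phospholipases C Plcb1, Plcb3, Plcb4 and Plce1, the diacylglycerol kinases Dgka, Dgkd and Dgkz, and the phospholipase A2 Pla2g5. They were taken by symbol from the count matrix of mouse heart RNA, 10 of 23420 genes, and all 10 passed the filter on low counts that left 13765 genes for testing. The 29 libraries crossed 4 genotypes with 2 conditions in C57BL/6J mice labelled 12 weeks old. Wild-type hearts, hearts with postnatal cardiac ablation of PKCδ, hearts with germline knockout of PKCε, and hearts with the combined knockout of both were taken either unstressed (4, 3, 3 and 4 libraries) or 4 weeks after transverse aortic constriction (TAC; 4, 3, 4 and 4 libraries). TAC is a surgical narrowing of the aorta that loads the left ventricle with pressure. The labels describe the control arm as unstressed and name no sham operation, so an effect of TAC here includes that of the operation. The driver of the PKCδ ablation is not given in the sources used here, and the tissue is labelled whole heart although the protocol describes the ventricular apex.

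Gq and G11 couple receptors for catecholamines, angiotensin and endothelin to phospholipase C β in cardiac muscle. Phospholipase C splits a membrane phosphoinositide into inositol trisphosphate, which opens calcium stores, and diacylglycerol, which recruits and activates protein kinase C, including the calcium-independent isoforms PKCδ and PKCε. Diacylglycerol kinases end that signal by turning diacylglycerol into phosphatidic acid, and sustained Gq activity is a known trigger of cardiac hypertrophy. Phospholipases A2 release fatty acids from phospholipids, and Pla2g5 encodes a small secreted form that is abundant in heart.

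Each library held between 10523709 and 17314739 gene counts. Prkce stood at 46.9 to 52.9 CPM (counts scaled to the normalized library size) in unstressed wild-type libraries, 7.62 to 9.19 in unstressed PKCε libraries and 6.59 to 7.69 in unstressed combined libraries. After TAC it stood at 24.0 to 42.9 CPM in wild type and 7.25 to 10.8 in PKCε libraries. In the library labelled combined ablation, TAC, replicate 2, Prkce was against the label at 31.5 CPM, where the other 3 held 8.21 to 10.97, and wild-type TAC replicate 2 held the lowest wild-type value, 24.0. These 2 libraries are called doubted, and the TAC effects of the genes in wild-type and combined hearts that were called are given with and without them. Prkcd stood at 13.4 to 15.9 CPM in unstressed wild-type and 16.3 to 18.7 in unstressed libraries labelled PKCδ ablation, so counts over the whole gene, from all cells of the tissue, do not check that label. Xist exceeded 10 CPM in 18 of 23 libraries labelled male, Y-linked transcripts exceeded 10 CPM in 4 of 6 labelled female, and 10 of 29 libraries, 8 of them from TAC hearts, held both. Female labels occur only after TAC, 3 of them among the 4 combined TAC and 2 among the 3 PKCδ TAC libraries, so the sex term of the fit weighs most there. A fit of the libraries labelled male leaves 1 library in each of these groups, which is assumed to vary like the other groups. The closest replicates were unstressed combined libraries 2 and 4, with a chi-square per degree of freedom of 1.58 against 10.3 to 15.9 for the other pairs of that group. The labels do not say whether these libraries share a heart, so comparisons with this group are also given, where a call ended, with both summed and counted as 1 library. The pre-ribosomal transcript Rn45s took 9.9% to 14.1% of counts in unstressed and 4.51% to 8.59% in TAC libraries. Non-unique alignments took 8.01% to 9.57% of assigned and unassigned totals in unstressed and 11% to 14.2% in TAC libraries. The 2 conditions thus differed in both of these library properties without overlap, and the part of either in the results was not tested. All 10 markers of ventricular cardiomyocytes were detected in every group. The labels do not tie libraries to separate animals, and p-values here reflect only how these libraries spread.

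Per kilobase of exon, Gna11 had the highest level of the 10 genes in unstressed wild-type hearts, 34.5 ± 1.31 CPM per kb (SD, n = 4), followed by Dgkz at 24.3 ± 1.88. Pla2g5 (16.0 ± 3.69 CPM per kb) and Dgkd (14.9 ± 0.76) came next and overlapped. The level of Plcb3 was 10.2 ± 0.45 CPM per kb, that of Plcb4 9.34 ± 1.13 and that of Dgka 8.71 ± 0.79, and the libraries of these 3 genes overlapped. Gnaq stood at 6.28 ± 0.70 CPM per kb and overlapped with Plce1 at 6.14 ± 0.12. Plcb1 was lowest at 1.04 ± 0.028 CPM per kb. Across the 8 groups, the highest group mean exceeded the lowest by 1.12-fold (Dgkd) to 1.37-fold (Plcb4) in 9 of the genes and by 6.10-fold in Pla2g5.

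**Figure D1:**
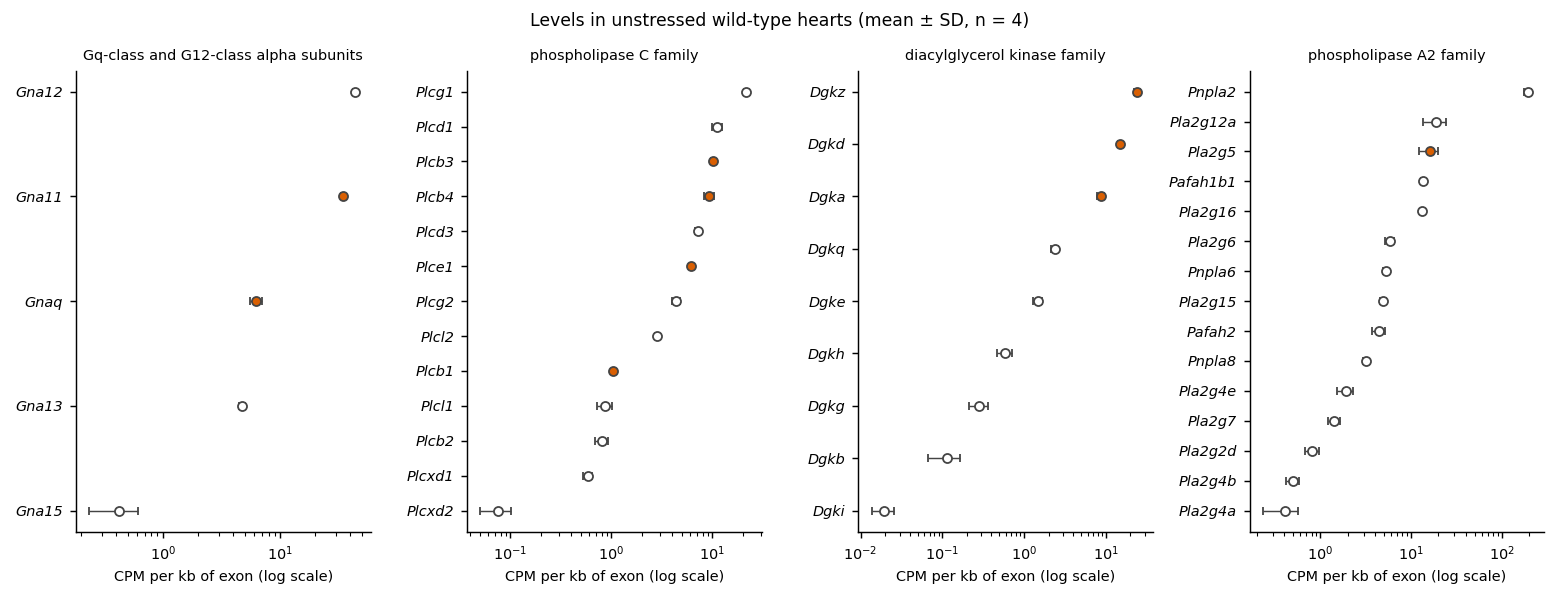
Levels in the 4 unstressed wild-type libraries, as CPM per kilobase of exon on a log axis, for tested genes of the Gq and G12 α subunits, phospholipases C, diacylglycerol kinases and phospholipases A2. Points are means, bars are SD, and filled points are the genes described here; Gna11 and Dgkz stand at 34.5 and 24.3 CPM per kb and Plcb1 at 1.04.

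TAC lowered Pla2g5 in all 4 genotypes, and it moved the other 9 genes by small amounts that differed between genotypes. In wild type Plcb3 rose while Plcb4, Dgka and Pla2g5 fell, so 4 of 10 genes were called by edgeR's quasi-likelihood test with Benjamini-Hochberg adjustment over all genes (35.8% of all genes tested). The groups did not overlap in CPM for 5 of 10 (35.2% of all genes). In PKCδ hearts Gna11 rose and Pla2g5 fell, 2 of 10 called (23.6% of all genes), with no overlap for 5 of 10 (48% of all genes). In PKCε hearts the same 2 genes were called in the same directions (28.8% of all genes called), with no overlap for 2 of 10 (35.4%). In combined hearts Plcb1 and Plcb4 rose while Dgkz and Pla2g5 fell, 4 of 10 called (32.1% of all genes), with no overlap for 4 of 10 (33% of all genes). The share called among the 10 was thus near that among all genes in each genotype. Median log2 fold changes of the 10 genes were -0.0035, -0.095, -0.046 and -0.063 in that order, beside -0.0025, -0.023, 0.00050 and 0.0013 for all genes. The 4 effects come from separate libraries in each genotype. In the combined hearts the count was 8 without the sex term, where 43.8% of all genes were called, and 8 with a score of Y-linked transcripts in its place, where 45.3% were. Over all comparisons, leaving the sex term out added 11 calls of single genes and ended 0. The Y-linked score added 13 and ended 0. Genes whose TAC effect in combined hearts is given below as not called thus include some called without the sex term. Without the doubted libraries the count was 4 in wild type and 3 in combined hearts (31.6% and 33.4% of all genes). With the closest unstressed combined libraries counted as 1 it was 2 in combined hearts (30.6% of all genes).

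**Figure D2:**
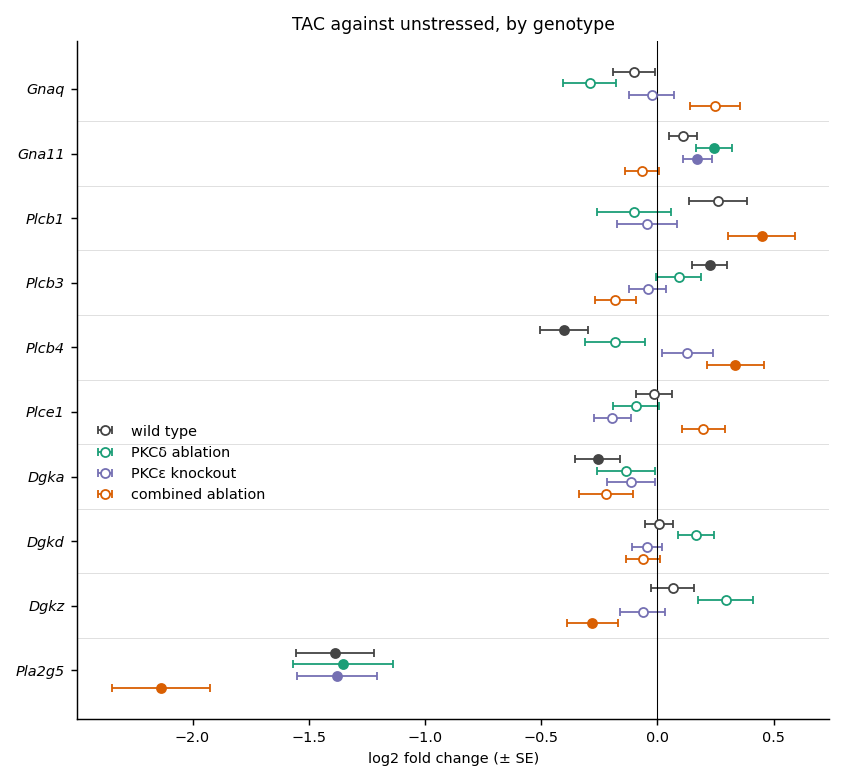
Log2 fold change of TAC against unstressed hearts (x axis, ± SE) for each gene and genotype. Filled points passed the test at an adjusted p of 0.05; Pla2g5 lies between -1.35 and -2.14, and the other genes lie within 0.45 of 0.

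Against unstressed wild type, the unstressed combined hearts had more Plcb3 and less Gnaq, Plcb4 and Plce1, so 4 of 10 genes were called (29% of all genes), with no overlap for 3 of 10 (29.5% of all genes). With the closest unstressed combined libraries counted as 1, 2 of 10 were called, Plcb4 and Plce1 (27% of all genes). None of the 10 was called in unstressed PKCδ hearts (5.3% of all genes) or PKCε hearts (2.98% of all genes) by edgeR, and DESeq2 called 0 in both. At an unadjusted p below 0.05 the counts were 1 and 4. The share of all genes at that unadjusted threshold was not taken, here and below, so such counts cannot be set against the shares of genes called. Groups did not overlap for 1 of 10 in PKCδ and in PKCε hearts (20% and 15.5% of all genes). After TAC, Pla2g5 alone was called in combined against wild-type hearts (0.886% of all genes), and the count was 4 without the sex term, where 6.76% of all genes were called. Groups did not overlap for 3 of 10 (9.45% of all genes). None was called in PKCδ hearts (0% of all genes) or PKCε hearts (0.0509% of all genes) after TAC, with 0 and 3 at an unadjusted p below 0.05 and 0 by DESeq2. There the groups did not overlap for 1 of 10 in each (9.22% and 6.8% of all genes). The TAC effect of combined hearts differed from that of wild type for Plcb3, Plcb4 and Pla2g5, 3 of 10 (19.1% of all genes). No such difference was called for PKCδ (0.908% of all genes) or PKCε hearts (0.0291% of all genes), with 0 and 2 at an unadjusted p below 0.05 and 0 by DESeq2. Each of these comparisons shares its wild-type libraries with the others.

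**Figure D3:**
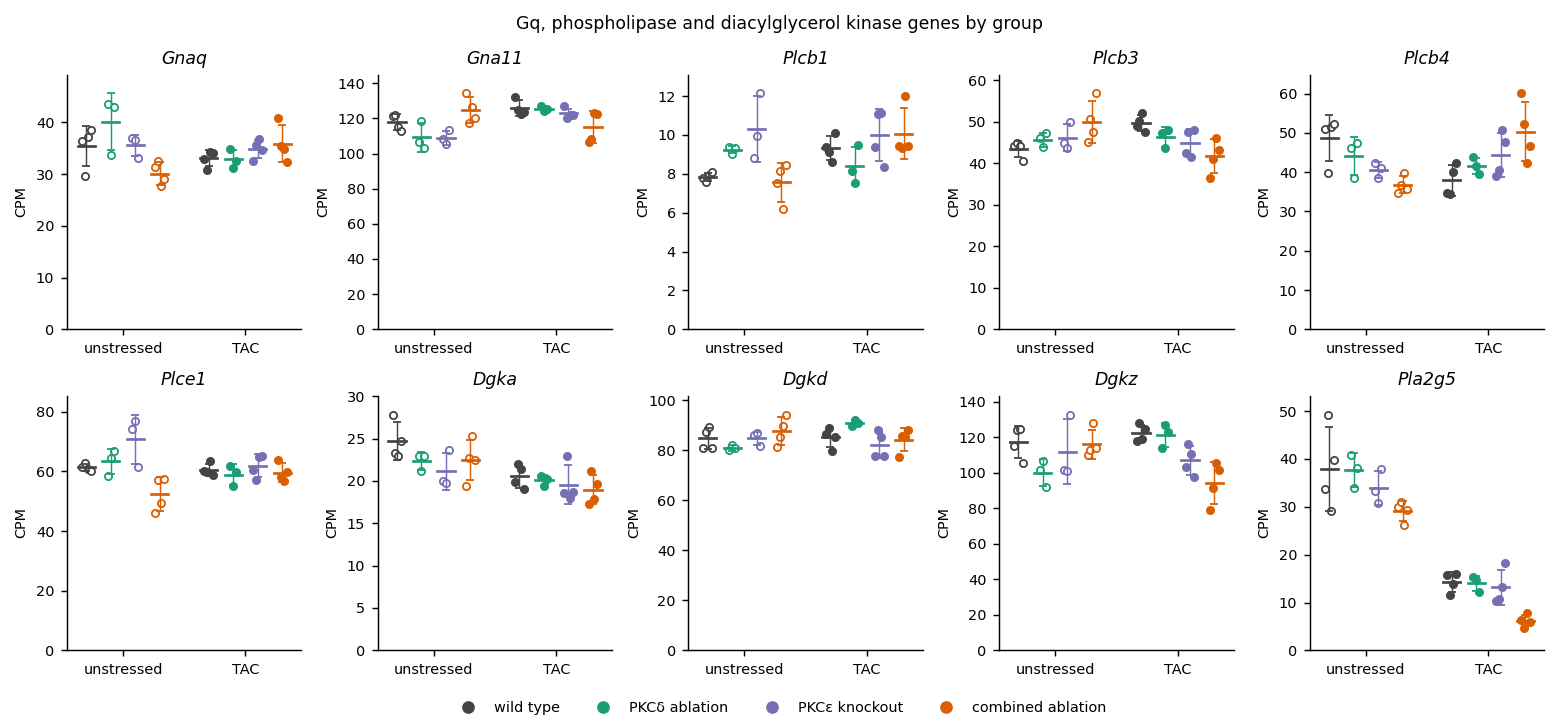
CPM of each gene in every library (points), with the mean (line) and SD (bars) of the 8 groups; the y axes start at 0. Open points are unstressed and filled points TAC libraries; Pla2g5 lies between 26.1 and 49.3 CPM in unstressed and between 4.71 and 18.3 CPM in TAC libraries.

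Gnaq (GRCm38, chromosome 19, 16132684 to 16388520) encodes Gαq. Unstressed wild-type libraries held 36.5, 29.7, 37.2 and 38.5 CPM, and unstressed combined libraries 31.4, 32.5, 27.7 and 28.97 CPM. The groups overlapped through wild-type replicate 2. Gnaq was lower in the combined hearts by a log2 difference of -0.23 ± 0.09 (SE, adjusted p = 0.047). This call was narrow: it ended with a correction for GC content (-0.16, adjusted p = 0.15), without the filter (adjusted p = 0.060), with the 2 groups fitted alone (adjusted p = 0.057), with the closest combined libraries counted as 1 (adjusted p = 0.059), and without any 1 of wild-type replicates 1, 3 and 4 and combined replicates 1, 3 and 4 (adjusted p 0.059 to 0.14). TAC changed Gnaq by -0.10 ± 0.09 in wild type and by 0.25 ± 0.11 in combined hearts, where the libraries held 40.9, 35.4, 34.8 and 32.4 CPM (adjusted p = 0.41 and 0.078). These values were -0.06 and 0.26 without the doubted libraries (adjusted p = 0.71 and 0.074).

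Gna11 (chromosome 10, 81528724 to 81545162, minus strand) encodes Gα11, the close relative of Gαq. In PKCδ hearts it stood at 107, 118 and 103 CPM unstressed and 127, 124 and 125 CPM after TAC, without overlap. It rose there by 0.24 ± 0.08 (log2, SE, adjusted p = 0.022). In PKCε hearts it went from 109, 105 and 113 to 127, 120, 122 and 122 CPM, again without overlap, a rise of 0.17 ± 0.06 (adjusted p = 0.041). With GC correction both changes shrank to 0.05 and 0.03 (adjusted p = 0.68 and 0.70). The PKCδ call also ended among libraries labelled male, which hold 1 PKCδ TAC library, with the 2 groups fitted alone (adjusted p = 0.12 and 0.13), and without unstressed replicate 1 or 3 or TAC replicate 1 (adjusted p 0.063 to 0.10), and the PKCε call with the 2 groups fitted alone (adjusted p = 0.053), without the filter (adjusted p = 0.050), and without unstressed replicate 1 or 2 or any 1 TAC library (adjusted p 0.052 to 0.14).

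Plcb3 and Plcb4 encode phospholipase C β isoforms driven by Gq-class subunits. The windows of bases upstream of annotated RefSeq starts (GRCm38.p6) are shown because the 2 genes moved in opposite directions. Capitals mark GC boxes (GGGCGG) and E-boxes (CANNTG) on either strand. The Plcb3 window, chr19:6969815-6970064 on the minus strand, lies inside the gene's span and overlaps no annotated exon of it. The Plcb4 window, chr2:135764588-135764837 on the plus strand, belongs to an internal start.
Plcb3: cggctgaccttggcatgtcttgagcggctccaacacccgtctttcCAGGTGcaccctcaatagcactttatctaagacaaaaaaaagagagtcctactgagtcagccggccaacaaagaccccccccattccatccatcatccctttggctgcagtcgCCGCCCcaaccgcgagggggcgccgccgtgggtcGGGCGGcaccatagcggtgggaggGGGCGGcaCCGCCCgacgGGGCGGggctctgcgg
Plcb4: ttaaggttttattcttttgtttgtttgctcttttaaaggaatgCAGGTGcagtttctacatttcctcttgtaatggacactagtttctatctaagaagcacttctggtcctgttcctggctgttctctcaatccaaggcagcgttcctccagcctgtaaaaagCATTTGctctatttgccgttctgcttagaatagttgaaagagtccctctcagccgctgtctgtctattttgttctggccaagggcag
The Plcb3 window held 5 GC boxes and 1 E-box and was 64.4% G or C, and this Plcb4 window held 0 GC boxes and 2 E-boxes and was 42.8% G or C. Of 32851 upstream windows of this length, 32.7% held a GC box and 66.2% an E-box. The other Plcb4 window, at its upstream start, was 85.2% G or C and held 7 GC boxes and 0 E-boxes, so the contrast in G and C holds for the internal start only; it is not printed because it overlaps an annotated exon. Of the other motifs searched on both strands, AP-1 (TGANTCA, in 6.75% of windows) was found 1 time in the Plcb3 window and in none of the windows of the other 9 genes, and the MEF2 motif (in 3.2%) in no window of the 10 genes.

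Plcb4 (chromosome 2, 135658603 to 136014602) showed the strongest dependence on genotype among the phospholipases C. Unstressed wild-type libraries held 51.1, 39.9, 51.6 and 52.2 CPM, and wild-type TAC libraries 34.7, 34.5, 40.0 and 42.4 CPM. The groups overlapped only through unstressed replicate 2, and TAC lowered the gene by -0.40 ± 0.10 (log2, SE, adjusted p = 0.0032). Unstressed combined libraries held 34.7, 36.9, 39.8 and 35.8 CPM, below every unstressed wild-type library, a difference of -0.41 ± 0.10 (adjusted p = 0.0032). After TAC the combined libraries held 60.1, 52.2, 42.4 and 46.8 CPM, above every unstressed combined library, a rise of 0.33 ± 0.12 (adjusted p = 0.037). The TAC effect thus differed between combined and wild-type hearts by 0.74 ± 0.15 (adjusted p = 0.0013).

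Without the 2 doubted libraries the Plcb4 values were -0.36 for TAC in wild type (adjusted p = 0.018), 0.34 for TAC in combined hearts (0.041) and 0.70 for their difference (0.0039). The fall in wild type, the lower level in unstressed combined hearts and the difference of TAC effects remained called in each alternative and with each library left out. With GC correction they were -0.26, -0.27 and 0.50 (adjusted p = 0.024, 0.018 and 0.010). The rise in combined hearts was called in fewer settings: it ended with GC correction (0.25, adjusted p = 0.067), among libraries labelled male, which hold 1 combined TAC library (0.21, adjusted p = 0.34), with the 2 groups fitted alone (0.21, adjusted p = 0.42), with the closest unstressed combined libraries counted as 1 (0.33, adjusted p = 0.058), and without unstressed combined replicate 1, 2 or 4 or TAC replicate 1 (adjusted p 0.056 to 0.077). In PKCδ and PKCε hearts the TAC effects were -0.18 ± 0.13 and 0.13 ± 0.11, neither called (adjusted p = 0.33 and 0.40). The summed CPM of 8 endothelial markers, all detected in each group, was 1523 to 1647 in unstressed wild type, 1189 to 1348 in unstressed combined hearts, and 1466 to 1634 in combined hearts after TAC, in the same order as Plcb4 in the combined hearts. By group means each marker was lower in unstressed combined than in unstressed wild-type hearts except Vwf, at 182 and 134 CPM. The largest fall in CPM was that of Fabp4, from 429 in unstressed wild type to 281. Kdr had means of 196 CPM unstressed and 199 CPM after TAC in combined hearts. In wild type after TAC the sum was 1383 to 1640, overlapping with the unstressed range, while Plcb4 fell. Some fibroblast markers had a like order of means over unstressed wild type, unstressed combined and combined TAC hearts. Dcn had 247, 185 and 332 CPM and Pdgfra 50.8, 36.6 and 56.7 CPM, and Tcf21 and Lum also fell and rose. Col1a1, Col1a2, Col3a1 and Postn were instead higher in unstressed combined than in unstressed wild-type hearts. The part of these markers in the result was not tested, and fewer cells of a type and less RNA per cell cannot be told apart in these bulk samples.

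Plcb3 (chromosome 19, 6953708 to 6975006) went the other way. Unstressed wild-type libraries held 44.1, 44.9, 44.1 and 40.6 CPM and wild-type TAC libraries 49.1, 50.2, 52.1 and 47.6 CPM, without overlap. The rise was 0.22 ± 0.08 (log2, SE, adjusted p = 0.020), or 0.24 without the doubted libraries (adjusted p = 0.031). Unstressed combined libraries held 45.1, 50.6, 47.7 and 56.8 CPM, above every unstressed wild-type library, by 0.21 ± 0.07 (adjusted p = 0.034). Combined TAC libraries held 36.5, 41.1, 46.2 and 43.2 CPM, a change of -0.18 ± 0.09 (adjusted p = 0.12, or 0.14 without the doubted libraries), and the difference of TAC effects between combined and wild-type hearts was -0.41 ± 0.11 (adjusted p = 0.010). Without the doubted libraries this difference was -0.42 (adjusted p = 0.015). With GC correction none of the 3 calls held: they were 0.06, 0.07 and -0.17 (adjusted p = 0.60, 0.55 and 0.35). The wild-type rise also ended without unstressed replicate 4 (0.19, adjusted p = 0.075) or TAC replicate 3 (0.21, adjusted p = 0.057). The unstressed difference ended without the filter (adjusted p = 0.053), with the 2 groups fitted alone (adjusted p = 0.062), with the closest combined libraries counted as 1 (0.17, adjusted p = 0.091), and without wild-type replicate 1, 3 or 4 or combined replicate 2 or 4 (adjusted p 0.058 to 0.17). The difference of TAC effects ended among libraries labelled male, with 1 combined TAC library (-0.34, adjusted p = 0.14). Over the 29 libraries, log2 CPM of Plcb3 and Plcb4 had a Pearson r of -0.68, as a description of libraries that share groups.

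**Figure D4:**
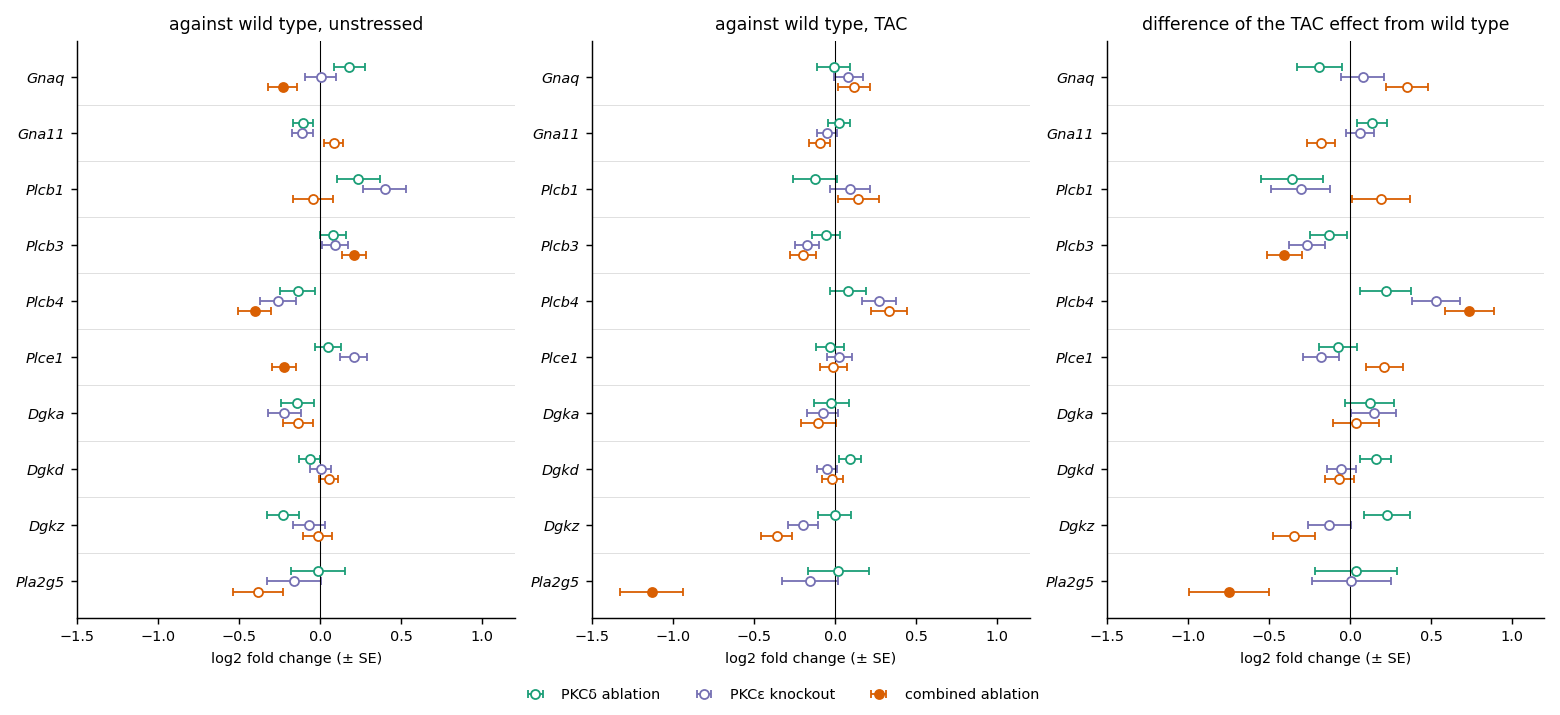
Log2 difference of each genotype from wild type (x axis, ± SE) in unstressed hearts, after TAC, and as the difference of its TAC effect from that of wild type. Filled points passed the test at an adjusted p of 0.05; in combined hearts Plcb4 lies at -0.41 unstressed and 0.74 in the difference, and Pla2g5 at -1.13 after TAC.

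Plcb1 (chromosome 2, 134786164 to 135475258), another Gq-driven isoform, was the least expressed, with counts of 74 to 205 per library. In combined hearts it went from 7.55, 8.13, 6.18 and 8.44 to 9.43, 9.35, 12.0 and 9.42 CPM, without overlap, a rise of 0.45 ± 0.14 (log2, SE, adjusted p = 0.017). Without the doubted libraries it was 0.47 (adjusted p = 0.018). The call ended without TAC replicate 3 (0.20, adjusted p = 0.48), the only combined TAC library labelled male. That fit leaves only female labels in the group and so leans on the sex term from other groups. The remaining TAC libraries still lay above every unstressed combined library. Without unstressed replicate 3 the rise was 0.37 (adjusted p = 0.057). With the 2 groups fitted alone it was 0.67 (adjusted p = 0.067). In wild type the values were 7.79, 7.59, 7.94 and 8.09 unstressed and 9.39, 9.12, 8.61 and 10.1 CPM after TAC, also without overlap, but the change of 0.26 ± 0.13 was not called (adjusted p = 0.11, or 0.13 without the doubted libraries). It was 0.39 with GC correction (adjusted p = 0.023). An opposite-strand gene covers 2.37% of its exonic bases, whose reads cannot be told apart without strand.

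Plce1 (chromosome 19, 38481034 to 38785105) encodes phospholipase C ε, which is activated by Ras-family GTPases. It was lower in unstressed combined libraries (46.2, 57.1, 49.3 and 57.5 CPM) than in unstressed wild type (61.5, 63.0, 60.9 and 60.2 CPM), without overlap, by -0.22 ± 0.08 (log2, SE, adjusted p = 0.026). The call ended with GC correction (-0.17, adjusted p = 0.082) and without combined replicate 1 (-0.17, adjusted p = 0.12) or 3 (-0.20, adjusted p = 0.076). After TAC the 4 genotypes had means of 59.0 to 61.9 CPM.

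Among the diacylglycerol kinases, Dgka (chromosome 10, 128720131 to 128745084, minus strand), a calcium-responsive form, fell after TAC in wild type. Its libraries held 27.8, 23.3, 22.9 and 24.7 CPM unstressed and 19.9, 22.0, 21.4 and 19.0 CPM after TAC, without overlap, a change of -0.26 ± 0.10 (log2, SE, adjusted p = 0.037). It was -0.28 without the doubted libraries (adjusted p = 0.043). The call ended without unstressed replicate 1 (-0.19, adjusted p = 0.15), unstressed replicate 4 or TAC replicate 1 or 4 (adjusted p 0.067 to 0.097), among libraries labelled male (-0.22, adjusted p = 0.094), without the filter (adjusted p = 0.062) and with the 2 groups fitted alone (adjusted p = 0.060). The other genotypes had TAC changes of -0.14 ± 0.12, -0.11 ± 0.10 and -0.22 ± 0.12, none called. Pmel, on the opposite strand, covers 3.71% of the exonic bases of Dgka.

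Dgkz (chromosome 2, 91932822 to 91976443, minus strand), the ζ form with ankyrin repeats, went from 110, 113, 128 and 114 to 78.9, 91.7, 106 and 102 CPM in combined hearts, without overlap. The change was -0.28 ± 0.11 (log2, SE, adjusted p = 0.048), and it was -0.28 without the doubted libraries (adjusted p = 0.060), which ended the call. Among libraries labelled male, with 1 combined TAC library, it was -0.14 (adjusted p = 0.52), and with the 2 groups fitted alone -0.13 (adjusted p = 0.66). The call also ended with RLE scaling, without the filter and with DESeq2 (adjusted p = 0.050, 0.061 and 0.052), and with the closest unstressed combined libraries counted as 1 (adjusted p = 0.058). Unstressed replicate 2, 3 or 4 or TAC replicate 1 or 2 left out also ended it (adjusted p 0.056 to 0.13). After TAC, combined hearts lay below wild type (118, 128, 119 and 125 CPM) without overlap, with a difference of -0.36 ± 0.10 that was not called (adjusted p = 0.064, or 0.083 without the doubted libraries). DESeq2 called it (adjusted p = 0.026), and it was -0.24 with GC correction (adjusted p = 0.18). An opposite-strand gene covers 4.58% of its exonic bases.

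Dgkd (chromosome 1, 87853264 to 87945177), the δ form, varied least. Its libraries ranged from 77.4 to 94.3 CPM, and none of the 13 comparisons called it. In PKCδ hearts it stood at 80.0, 82.0 and 80.7 CPM unstressed and 89.5, 92.0 and 90.9 CPM after TAC, without overlap, a change of 0.17 ± 0.08 (log2, SE, adjusted p = 0.13).

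Pla2g5 (chromosome 4, 138799247 to 138863562, minus strand) had the largest changes of the 10 genes. The bases before its upstream start (chr4:138863563-138863719, minus strand) and before an internal start (chr4:138819258-138819507, minus strand) are shown because it was the gene most lowered by TAC, with capitals as above.
Pla2g5 upstream start: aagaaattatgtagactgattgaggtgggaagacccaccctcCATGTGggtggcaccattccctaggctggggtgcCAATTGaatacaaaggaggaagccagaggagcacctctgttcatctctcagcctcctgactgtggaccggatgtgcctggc
Pla2g5 internal start: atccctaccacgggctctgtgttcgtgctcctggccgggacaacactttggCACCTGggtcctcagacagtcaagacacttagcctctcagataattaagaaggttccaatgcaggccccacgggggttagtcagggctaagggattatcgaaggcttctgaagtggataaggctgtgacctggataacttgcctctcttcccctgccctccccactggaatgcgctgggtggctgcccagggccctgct
The windows held 2 and 1 E-boxes and 0 GC boxes.

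In wild type Pla2g5 stood at 33.7, 49.3, 29.03 and 39.7 CPM unstressed and at 15.7, 11.5, 13.9 and 15.9 CPM after TAC. The means were 37.9 ± 8.75 and 14.2 ± 2.04 CPM (SD, n = 4 and 4), which is -1.39 ± 0.17 on the log2 scale (SE, adjusted p = 1.0e-06). PKCδ libraries went from 40.9, 33.9 and 38.1 to 15.2, 14.6 and 12.2 CPM, by -1.35 ± 0.22 (adjusted p = 8.6e-05). In none of these did the TAC and unstressed libraries overlap.

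PKCε libraries went from 33.2, 30.8 and 37.9 to 10.4, 10.8, 13.2 and 18.3 CPM, by -1.38 ± 0.17 (adjusted p = 3.2e-06). Combined libraries held 30.0, 31.1, 26.1 and 29.3 CPM unstressed and 6.36, 4.71, 7.80 and 6.01 CPM after TAC, where the Pla2g5 change was -2.14 ± 0.21 (adjusted p = 6.1e-08). All 4 combined TAC libraries lay below every other library of the series. The fall was called in each genotype under each alternative and with each library left out. Without the doubted libraries it was -1.27 in wild type and -2.04 in combined hearts (adjusted p = 8.0e-06 and 1.0e-07), and with GC correction -1.41 and -2.10 (adjusted p = 1.1e-06 and 9.2e-08).

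After TAC, Pla2g5 was lower in combined than in wild-type hearts by -1.13 ± 0.19 (log2, SE, adjusted p = 0.020), or -1.15 without the doubted libraries (adjusted p = 0.0048). The call ended without wild-type TAC replicate 4 (-0.91, adjusted p = 0.20), the only wild-type library labelled female, and among libraries labelled male (-0.82, adjusted p = 0.58), where 1 combined TAC library remains and is assumed to vary like the other groups. It also ended when only the 2 groups were fitted (-1.16, adjusted p = 0.13). The TAC effects of combined and wild-type hearts differed by -0.75 ± 0.25 (adjusted p = 0.035), or -0.76 without the doubted libraries (adjusted p = 0.034). That call ended with GC correction (-0.69, adjusted p = 0.071), among libraries labelled male (-0.43, adjusted p = 0.49), without wild-type TAC replicate 4 (-0.52, adjusted p = 0.22), and without unstressed wild-type replicate 1 or 3, unstressed combined replicate 1 or 2, wild-type TAC replicate 1 or combined TAC replicate 2 (adjusted p 0.052 to 0.066). In unstressed hearts Pla2g5 was -0.38 ± 0.15 in combined against wild-type libraries, not called (adjusted p = 0.062), but called with GC correction (-0.41, adjusted p = 0.048), without the doubted libraries (-0.39, adjusted p = 0.042) and without wild-type replicate 3 (-0.49, adjusted p = 0.021).

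The summed CPM of the 10 ventricular cardiomyocyte markers was 125669 to 143819 in unstressed wild type, 105178 to 128209 in wild type after TAC, and 104581 to 115410 in combined hearts after TAC. That of 8 fibroblast markers rose from 897 to 1016 in unstressed wild type to 1803 to 3751 after TAC. It stood at 2052 to 3367 in combined hearts after TAC. In wild type the markers called higher after TAC were Col1a1, Col1a2, Col3a1 and Postn. Pdgfra, Tcf21, Dcn and Lum were not called there (adjusted p 0.11 to 0.56). In combined hearts each of these markers was called higher after TAC. All markers of both lists were detected in each group, and the part of these levels in the fall of Pla2g5 was not tested.

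Fold changes followed the GC content of transcripts in these libraries, and several of the small changes above followed it too. Over 13670 genes the log2 fold change and the GC content of the longest transcript had a Spearman rho of 0.354 for TAC in wild type, 0.348 for combined against wild type unstressed, and -0.462 for the difference of their TAC effects, as descriptions across genes that share libraries. Plcb4 (43.5% GC), Plcb1 (44.5%) and Gnaq (46.9%) lie at the low end, Plce1 at 47.7%, Dgka, Pla2g5 and Dgkd at 51.5% to 52.3%, and Plcb3 (56.9%), Gna11 (57.2%) and Dgkz (59.6%) at the high end. By library, the mean log2 level of high-GC genes less that of low-GC genes ran from -0.283 to -0.0222 in unstressed wild type and from 0.162 to 0.328 in unstressed combined hearts. It ran from 0.172 to 0.363 in wild type after TAC and from -0.377 to 0.245 in combined hearts after TAC. A technical origin of this tilt was not tested.

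**Figure D5:**
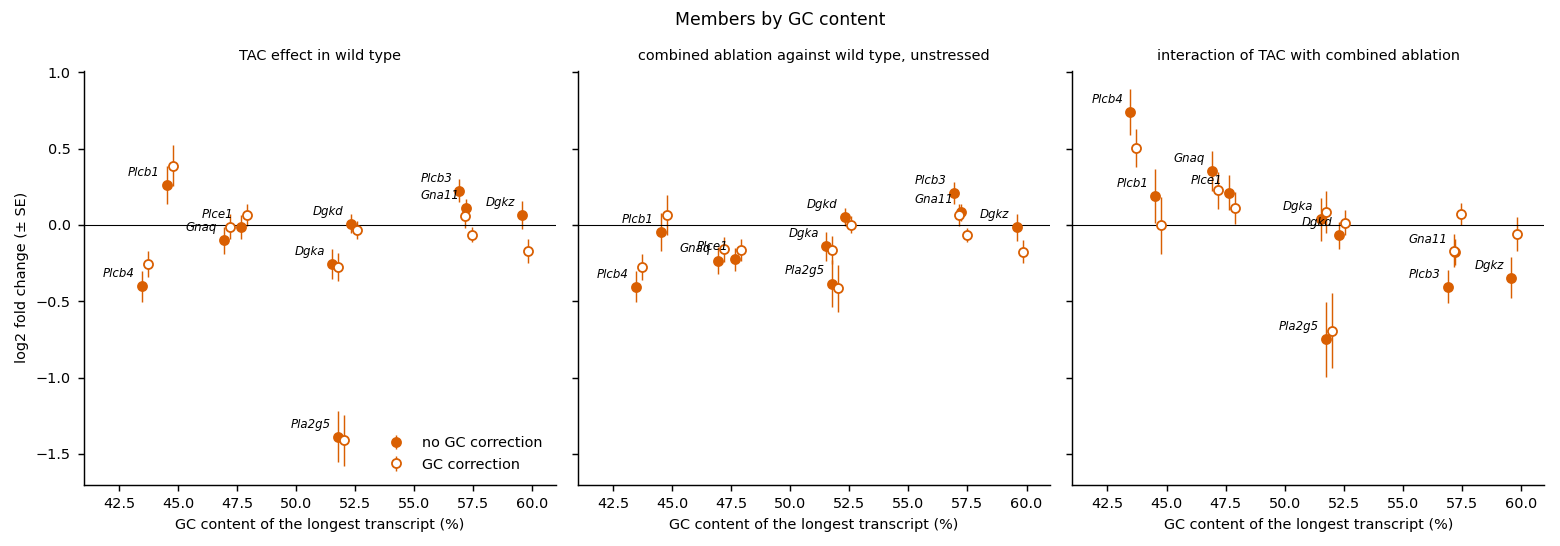
Log2 fold change (y axis, ± SE) against the GC content of the longest transcript (x axis, %) for the 10 genes in 3 comparisons, without (filled) and with (open, shifted by a fixed amount to the right) GC correction. In the difference of TAC effects, Plcb4 goes from 0.74 to 0.50 and Plcb3 from -0.41 to -0.17, while Pla2g5 goes from -0.75 to -0.69.

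Other genes of the pathway were taken from lists chosen with earlier results of these data known. Counts called in each list are set beside the shares called among all genes after TAC, 35.8% in wild type and 32.1% in combined hearts. Of 23 tested Gq-coupled receptors of the heart, 7 rose and 3 fell in wild type (43.5% called), and 5 rose and 3 fell in combined hearts (34.8%). Adra1a, the α1A-adrenergic receptor, fell by -1.21 ± 0.17 in wild type and -1.99 ± 0.21 in combined hearts (log2, SE, adjusted p = 1.0e-05 and 2.4e-07). Adra1b fell in combined hearts by -1.31 ± 0.21 (adjusted p = 4.4e-05). The thromboxane receptor Tbxa2r rose in wild type by 0.98 ± 0.19 (adjusted p = 0.00019), and the endothelin B receptor Ednrb rose in combined hearts by 1.03 ± 0.17 (adjusted p = 3.4e-05). Without the doubted libraries 4 receptors rose and 2 fell in wild type, and 5 rose and 5 fell in combined hearts. The shares of all genes called without those libraries are given above with the counts of the 10 genes.

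Of 14 tested regulators of G-protein signalling, receptor kinases and arrestins, 5 rose and 4 fell in wild type (64.3% called). In combined hearts 2 rose and 3 fell (35.7%). Leaving out the doubted libraries, 5 rose and 5 fell in wild type, and 1 rose and 3 fell in combined hearts. The list was not limited to genes that act on Gq. Grk5, a receptor kinase, rose in both, by 1.098 ± 0.16 and 0.48 ± 0.19 (adjusted p = 1.0e-05 and 0.049), but the rise in combined hearts was not called without the doubted libraries (0.48, adjusted p = 0.063). Rgs6, a regulator of G-protein signalling, fell by -0.53 ± 0.15 and -0.87 ± 0.18 (adjusted p = 0.0070 and 0.00042). The family of phospholipases C had 13 tested genes, of which 2 rose and 1 fell in wild type, with Plcg2 at 0.69 ± 0.16 (adjusted p = 0.0013), and 3 rose in combined hearts (23.1% called in each). Of 9 tested diacylglycerol kinases 1 fell in wild type (11.1%) and 2 fell in combined hearts (22.2%), and none rose. Besides Dgkz, the one called in combined hearts was Dgki, at means of 0.846 CPM unstressed and 0.127 CPM after TAC. The count there was 1 without the doubted libraries.

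Of 15 tested phospholipases A2, 1 rose and 5 fell in wild type (40% called) and 4 rose and 4 fell in combined hearts (53.3%). Pla2g4e, a cytosolic form, fell beside Pla2g5, by -0.92 ± 0.19 and -1.92 ± 0.24 (adjusted p = 0.00046 and 8.8e-07). Pla2g12a and Pla2g16 rose in combined hearts, by 0.87 ± 0.22 and 0.44 ± 0.14 (adjusted p = 0.0043 and 0.019). Among 20 other makers and users of diacylglycerol, 5 rose and 8 fell in wild type (65%) and 3 rose and 4 fell in combined hearts (35%). Leaving out the doubted libraries, 5 rose and 6 fell in wild type, and 3 rose and 6 fell in combined hearts. Ppap2a, a lipid phosphate phosphatase that returns phosphatidic acid to diacylglycerol, rose by 0.88 ± 0.12 and 0.92 ± 0.14 (adjusted p = 2.7e-06 and 1.3e-05). Of 20 tested effectors of diacylglycerol, a list that holds the 2 targeted genes, 3 rose and 3 fell in wild type (30%) and 5 rose and 0 fell in combined hearts (25%). Prkcd itself rose by 0.65 ± 0.12 and 0.68 ± 0.14 (adjusted p = 0.00012 and 0.00041).

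Of 7 tested IP3 receptors and IP3-removing enzymes, 1 rose and 1 fell in each genotype (28.6% called). Inpp5a, a phosphatase of IP3, rose by 0.32 ± 0.07 in wild type and 0.37 ± 0.08 in combined hearts (adjusted p = 0.00043 and 0.00067). Itpr2, an IP3 receptor of cardiac muscle, fell by -0.45 ± 0.12 in wild type (adjusted p = 0.0052) and was at 0.23 ± 0.14 in combined hearts (adjusted p = 0.23). The TAC effects on Itpr2 differed between combined and wild-type hearts by 0.68 ± 0.17 (adjusted p = 0.0083). Itpr2 was already lower in unstressed combined than in unstressed wild-type hearts (46.4 against 70.2 CPM, -0.60 ± 0.12, adjusted p = 0.00045). After TAC the means were 55.2 and 51.7 CPM (adjusted p = 0.81). The difference of TAC effects on Itpr2 was not examined with GC correction or without the doubted libraries. The gene that fell in combined hearts was Itpka, an IP3 kinase, at means of 0.985 CPM unstressed and 0.274 CPM after TAC. Of 22 genes of phosphoinositide supply and return, 3 rose and 4 fell in wild type (31.8%) and 2 rose and 3 fell in combined hearts (22.7%), and Synj2, a phosphoinositide phosphatase, fell by -0.48 ± 0.07 and -0.41 ± 0.09 (adjusted p = 9.3e-06 and 0.00045). Of 5 tested Gq-class and G12-class α subunits, 0 were called in wild type and 1, Gna13, in combined hearts (20%), where it was not called without the doubted libraries (adjusted p = 0.074). The other TAC effects named as called from these lists, with Dgki and Itpka not examined singly, stayed called without the doubted libraries, among them Adra1a at -1.08 and -1.99, Rgs6 at -0.43 and -0.80 and Itpr2 at -0.34.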

How the data were processed

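The deposited values were counts of reads per gene, made by the authors with build mm10 and with TopHat2 2.0.10, Bowtie2 and HTSeq among the tools named in the submitters' processing notes. The sources used here do not give their settings or the annotation. Libraries were not strand-specific, per the labels' protocols. Beside 23420 genes the files hold 5 rows of unassigned totals, which entered no library size.

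Counts were analysed with edgeR 4.0.16 in R 4.3.3: TMM scaling, filterByExpr by group, and a robust quasi-likelihood fit of all 29 libraries with a mean per group and the sex label (20 residual degrees of freedom). P-values were adjusted by Benjamini-Hochberg over 13765 genes, with a threshold of 0.05. Log2 CPM used a prior count of 2. Alternatives were RLE scaling, no filter, no sex term, libraries labelled male, a replicate block, the compared groups alone, DESeq2 1.42.0, each library left out, and both doubted libraries left out. After seeing the data, a Y-linked score, a correction for GC content and the sum of the closest unstressed combined libraries as 1 were added. The script was tested on simulated data. The text names all 10 genes. In each pathway list the 2 called genes that rose most and the 2 that fell most after TAC, in wild-type and in combined hearts, qualified where their mean log2 CPM was at least 1; those printed are a part of these, and they, Dgki and Itpka were chosen after their values were seen. Members and lists were chosen with earlier results of these data known. Positions and upstream windows are from RefSeq (GRCm38.p6), exons and transcripts from GENCODE. Figures were drawn with matplotlib 3.10.9.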

Additional observations from a re-analysis of the deposited data

Results flagged for a closer look

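Each gene was tested in each group of 4 libraries for a library far from the others. Of these 50 tests, which share libraries, 3 found one, where chance gives about 1 in 20. Plcb1 stood at 12.02 CPM in the library labelled combined ablation, TAC, replicate 3, while the other 3 held 9.353 to 9.433. Plcb4 stood at 39.9 CPM in unstressed wild-type replicate 2, while the others held 51.12 to 52.22. Dgka stood at 22.98 CPM in PKCε TAC replicate 2, while the others held 17.94 to 18.65.

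For 3 genes the effect of TAC differed between combined and wild-type hearts by the test of that difference. The log2 difference was 0.7373 for Plcb4, -0.405 for Plcb3 and -0.7494 for Pla2g5. With GC correction only that of Plcb4 remained called, and the other settings that ended the calls of Plcb3 and Pla2g5 are given above.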

How the results depend on the processing

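No result changed direction while called. The share of all genes called also changes with the setting. It is not set beside the counts below, except where given above, so a shift of all genes cannot be told apart from one of the 10. Counts of called genes among the 10 that moved by more than 1.5 times were as follows. For TAC in PKCδ hearts, 2 became 1 with GC correction, among libraries labelled male and in a fit of the groups compared only, 4 without the sex term and 5 with the Y-linked score. For TAC in PKCε hearts, 2 became 1 without the filter on low counts, in the groups alone and with the replicate block. For TAC in combined hearts, 4 became 8 without the sex term and with the Y-linked score, 2 among libraries labelled male and 1 in the groups alone. For unstressed hearts, 0 became 1 in PKCδ with the Y-linked score, and in combined hearts 4 became 2 with GC correction, without the filter and in the groups alone. For combined against wild type after TAC, 1 became 2 with DESeq2, 4 without the sex term and with the Y-linked score, and 0 among libraries labelled male and in the groups alone. For the difference of TAC effects between combined and wild-type hearts, 3 became 1 with GC correction and among libraries labelled male, and 5 without the sex term and with the Y-linked score. With 1 library left out at a time, counts ranged from 2 to 4 for TAC in wild type (2 without unstressed replicate 4), 1 to 3 for TAC in PKCδ, 1 to 3 for TAC in PKCε, 2 to 5 for TAC in combined hearts, 0 to 1 for unstressed PKCε (1 without replicate 3), 2 to 5 for unstressed combined, 0 to 2 for combined against wild type after TAC, and 2 to 5 for the difference of TAC effects. With the closest unstressed combined libraries counted as 1, 4 became 2 for TAC in combined hearts and 2 for unstressed combined hearts. The cause of these shifts was not tested. Over all comparisons, GC correction ended 9 calls of single genes and added 3. GC correction, the Y-linked score and the sum of the closest libraries were chosen after seeing the data. Same-numbered libraries did not deviate together (mean r = -0.0031, 8 of 94 pairs over 0.1), so the replicate number does not pair them, and the block changed 4 of 130 single-gene results: it ended the calls of Gna11 for TAC in PKCε hearts (0.17, adjusted p = 0.061), Plcb4 for TAC in combined hearts (0.30, adjusted p = 0.061) and Pla2g5 for the difference of TAC effects (-0.69, adjusted p = 0.050), and added Dgkz for that difference (-0.35, adjusted p = 0.048).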

Other observations

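The genes whose log2 CPM followed Pla2g5 most closely over the 29 libraries, among 11500 genes, were Gm14492 (Pearson r = 0.9485), Nhsl1 (0.9294), Lmtk2 (0.9257), Gpt2 (0.9206) and Klhl33 (0.9184). For Plcb4 they were Sf3b1 (0.9065), Picalm (0.8714), 9430020K01Rik (0.8524), Ptprb (0.8388) and Eps15 (0.8384). These are descriptions over libraries that share groups, and nothing about function or control follows from them. Among the 10 genes, Gnaq and Gna11 had an r of -0.71 and Gnaq and Plcb4 of 0.67.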
